A study of Homo sapiens with 6 samples.

Results

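YAP1, WWTR1 (which encodes TAZ), TEAD1, TEAD2, TEAD3, TEAD4 and VGLL4 are the 7 genes described here, taken by symbol from 19655 genes measured by RNA-Seq in SW480 cells. SW480 is an established human colorectal cancer line. Control cells expressed a nontargeting hairpin (shNT). Knockdown cells expressed either of 2 hairpins directed at PCYT2, named shPcyt2-1 and shPcyt2-2 in the labels and written shPCYT2-1 and shPCYT2-2 here, and each of the 3 groups had 2 libraries. PCYT2 encodes an enzyme of phosphatidylethanolamine synthesis. Per the study's methods, the hairpins against PCYT2 were delivered with lentiviral vectors and infected cells were selected with puromycin. How the shNT cells were made is not given in the sources used here. No source states that the libraries of a group came from separate cultures, so p values measure the spread between libraries, which may be technical. The values were taken to be FPKM, a fragment count corrected for gene length and library size, which summed to between 396467 and 402612 per library. The number of reads is unknown. All 7 genes were listed in all 6 libraries and passed the limit for testing, a mean of at least 0.5 FPKM, with 12756 genes in all.

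YAP1 and TAZ are paralogous transcriptional coactivators that do not bind DNA themselves. The Hippo kinase cascade phosphorylates both proteins, which keeps them in the cytoplasm or marks them for degradation. When unphosphorylated they enter the nucleus and bind the TEAD proteins, a family of DNA-binding transcription factors with several paralogs. VGLL4 also binds TEADs and competes with YAP1 for them. This control acts largely on the proteins, whereas the values below are mRNA levels.

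The level of PCYT2 itself, given first as a check of the labels, was 11.6 and 13.8 FPKM with shNT, 7.11 and 7.36 FPKM with shPCYT2-1, and 6.71 and 6.18 FPKM with shPCYT2-2. The knockdown libraries were all lower than the controls.

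In shNT cells, TEAD4 had the highest level of the 7 genes (52.1 ± 1.81 FPKM, SD, n = 2), followed by YAP1 (25.7 ± 0.265 FPKM) and VGLL4 (17.8 ± 0.759 FPKM). TEAD1 (13.4 ± 1.03 FPKM), TEAD2 (10.7 ± 0.444 FPKM) and TEAD3 (7.10 ± 0.359 FPKM) followed, and WWTR1 was lowest (3.40 ± 0.0665 FPKM). FPKM is a value per length, so levels of different genes can be compared on it. By the mean over all 6 libraries, TEAD4 ranked 1297 and WWTR1 ranked 9199 among the genes measured. The order TEAD4, YAP1, VGLL4, TEAD1, TEAD2, TEAD3, WWTR1 held between neighbors in 6 of 6 libraries, except that VGLL4 lay above TEAD1 in 5 of 6. In shPCYT2-1 cells the 2 libraries of VGLL4 and those of TEAD1 overlapped. The ratio of TEAD4 to YAP1 ran from 2.09 in shNT replicate 2 down to 1.03 in shPCYT2-2 replicate 1.

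The genes are protein coding and lie at separate loci of GRCh38 in GENCODE. YAP1 (ENSG00000137693) spans chr11:102110461-102233423 on the plus strand and WWTR1 (ENSG00000018408) spans chr3:149517235-149736714 on the minus strand. TEAD1 (ENSG00000187079, chr11:12674591-12944483, plus), TEAD2 (ENSG00000074219, chr19:49340595-49362457, minus), TEAD3 (ENSG00000007866, chr6:35473597-35497076, minus) and TEAD4 (ENSG00000197905, chr12:2959330-3040673, plus) lie on 4 chromosomes. VGLL4 (ENSG00000144560) spans chr3:11556070-11771350 on the minus strand. Genes listed in these libraries overlap 3 of the 7 on the opposite strand. ATG7 (mean 3.42 FPKM) overlaps VGLL4, CD37 (0.419 FPKM) and DKKL1 (0.243 FPKM) overlap TEAD2, and WWTR1-AS1 (0.0680 FPKM) overlaps WWTR1. Whether reads were counted by strand is not given in the sources used here, so the values of these pairs are uncertain by as much as they share reads.

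The level of YAP1, the main coactivator in these cells by mRNA, was 25.8 and 25.5 FPKM with shNT, 28.4 and 28.1 FPKM with shPCYT2-1, and 36.4 and 30.7 FPKM with shPCYT2-2. All 4 knockdown libraries lay above both shNT libraries, and the shPCYT2-2 libraries lay above the others. The log2 fold change, here and below on the log2(FPKM + 1) scale, which understates changes of low genes, was 0.37 with shPCYT2-2 (standard error 0.086, limma adjusted p = 0.0268), and YAP1 rose by this test. For shPCYT2-1 the change was 0.13 and did not pass (limma adjusted p = 0.269). It was 0.063 with median-ratio scaling and 0.050 after removal of a GC and length trend. Nor did the 0.24 that separated the hairpins pass (limma adjusted p = 0.0695). That difference passed with median-ratio scaling (0.26, limma adjusted p = 0.0313), after removal of a GC and length trend (0.24, limma adjusted p = 0.0337) and without shPCYT2-2 replicate 2 (0.36, limma adjusted p = 0.0300). The call with shPCYT2-2 was lost without either of 2 libraries. The log2 fold change was 0.25 without shPCYT2-2 replicate 1 (limma adjusted p = 0.151) and 0.36 without shNT replicate 2 (limma adjusted p = 0.104). The call was also lost without a variance trend (limma adjusted p = 0.0581), with no expression limit (limma adjusted p = 0.1003) and when the GC and length trend was removed together with a replicate block (0.29, limma adjusted p = 0.0555). In bulk RNA, a change in the number of cells of a kind and a change in RNA per cell cannot be told apart.

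WWTR1, the paralog of YAP1, stood at 3.36 and 3.45 FPKM with shNT, at 2.60 and 2.50 FPKM with shPCYT2-1, and at 3.22 and 2.55 FPKM with shPCYT2-2. Knockdown and shNT libraries did not overlap, but shPCYT2-2 replicate 1 lay close to shNT and apart from the other 3. Neither change passed: shPCYT2-1 gave -0.31 (limma adjusted p = 0.0689) and shPCYT2-2 gave -0.19 (limma adjusted p = 0.294). With median-ratio scaling of the libraries the shPCYT2-1 value passed (-0.37, limma adjusted p = 0.0255), as it did without shPCYT2-2 replicate 1 (limma adjusted p = 0.0445) or without shPCYT2-2 replicate 2 (limma adjusted p = 0.0449). It was largest and passed after removal of the GC and length trend (-0.43, limma adjusted p = 0.0169, or 0.0287 with the replicate block), and the shPCYT2-2 value was then -0.30 and did not pass (limma adjusted p = 0.0825).

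Among the TEADs, TEAD4 fell with shPCYT2-2, and TEAD1 and TEAD2 rose with shPCYT2-1. The level of TEAD4 was 50.8 and 53.3 FPKM with shNT, 54.3 and 52.5 FPKM with shPCYT2-1, and 37.4 and 42.3 FPKM with shPCYT2-2. The shPCYT2-2 libraries were the lowest and did not overlap the others, whereas shPCYT2-1 and shNT overlapped. Against shNT, TEAD4 changed by -0.38 in shPCYT2-2 cells (standard error 0.075, limma adjusted p = 0.0162), while the value in shPCYT2-1 cells was 0.037 (limma adjusted p = 0.745) and turned negative with median-ratio scaling (-0.036). With the GC and length trend removed, the shPCYT2-1 value was 0.19 and passed (limma adjusted p = 0.0479). It did not pass when the replicate block was added (limma adjusted p = 0.0700). TEAD4 also differed between the hairpins (-0.42 for shPCYT2-2 against shPCYT2-1, limma adjusted p = 0.00431). That difference passed with each library left out in turn, with limma adjusted p between 0.00428 and 0.0340. The shPCYT2-2 change against shNT did not pass without shNT replicate 2 (-0.34, limma adjusted p = 0.0735) or without shPCYT2-2 replicate 1 (-0.29, limma adjusted p = 0.114). It was -0.25 after removal of the GC and length trend, which did not pass with the replicate block (limma adjusted p = 0.0551), and with no expression limit it did not pass either (limma adjusted p = 0.0764).

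TEAD2, a paralog known from early development, stood at 10.3 and 11.0 FPKM with shNT, 13.3 and 15.1 FPKM with shPCYT2-1, and 10.8 and 10.3 FPKM with shPCYT2-2. The shPCYT2-1 libraries lay above the other 4, which overlapped. Its log2 fold change reached 0.38 in shPCYT2-1 cells (standard error 0.089, limma adjusted p = 0.0156), beside -0.016 in shPCYT2-2 cells (limma adjusted p = 0.927), which became 0.081 after removal of a GC and length trend. The hairpins differed by -0.40 (shPCYT2-2 against shPCYT2-1, limma adjusted p = 0.0115). Without shPCYT2-1 replicate 2, the change with shPCYT2-1 was 0.29 (limma adjusted p = 0.130) and the difference between hairpins -0.31 (limma adjusted p = 0.112). The change did not pass without shNT replicate 1 either (0.34, limma adjusted p = 0.0516), nor the difference without shPCYT2-2 replicate 2 (-0.37, limma adjusted p = 0.0689). With no expression limit the change with shPCYT2-1 did not pass (limma adjusted p = 0.0504).

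TEAD1, which is broadly expressed across tissues, was at 14.2 and 12.7 FPKM with shNT, 17.7 and 16.7 FPKM with shPCYT2-1, and 15.9 and 13.7 FPKM with shPCYT2-2. The shPCYT2-1 libraries lay above all others, and the shPCYT2-2 libraries overlapped shNT. TEAD1 changed by 0.34 in shPCYT2-1 cells (standard error 0.095, limma adjusted p = 0.0298), and the shPCYT2-2 value of 0.13 did not pass (limma adjusted p = 0.397). Neither did the contrast of the hairpins (-0.21, limma adjusted p = 0.126), which passed after removal of the GC and length trend (-0.21, limma adjusted p = 0.0395, or 0.0372 with the replicate block). The shPCYT2-2 value was 0.017 after that removal. The change with shPCYT2-1 was not called without shNT replicate 2 (0.27, limma adjusted p = 0.137), shPCYT2-1 replicate 1 (0.30, limma adjusted p = 0.167) or shPCYT2-1 replicate 2 (0.38, limma adjusted p = 0.0690), nor with no expression limit (limma adjusted p = 0.08999).

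TEAD3, the least abundant TEAD here, was at 6.84 and 7.35 FPKM with shNT, 6.22 and 6.97 FPKM with shPCYT2-1, and 5.27 and 5.89 FPKM with shPCYT2-2. The shPCYT2-2 libraries were the lowest, and shPCYT2-1 overlapped shNT. Neither hairpin's change passed. The values were -0.30 in shPCYT2-2 cells (limma adjusted p = 0.0776) and -0.094 in shPCYT2-1 cells (limma adjusted p = 0.510). The shPCYT2-1 value was -0.16 with median-ratio scaling and changed sign after removal of a GC and length trend (0.037), where the shPCYT2-2 value was -0.20. The hairpins differed by -0.21 (limma adjusted p = 0.152), which passed after that removal (-0.23, limma adjusted p = 0.0442). That call was lost when a replicate block was added to the removal. The shPCYT2-2 change passed with a replicate block alone (limma adjusted p = 0.0428).

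VGLL4, the competitor of YAP1 for TEADs, was at 18.3 and 17.2 FPKM with shNT, 17.2 and 19.0 FPKM with shPCYT2-1, and 18.2 and 18.7 FPKM with shPCYT2-2. The groups overlapped in every comparison. The change was 0.023 in shPCYT2-1 cells (standard error 0.079, limma adjusted p = 0.857) and 0.054 in shPCYT2-2 cells (limma adjusted p = 0.678), and the first value changed sign with median-ratio scaling (-0.047). Of the other vestigial-like genes, VGLL1 was not listed in any library and VGLL3 had a mean of 0.139 FPKM, under the limit for testing.

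**Figure D1:**
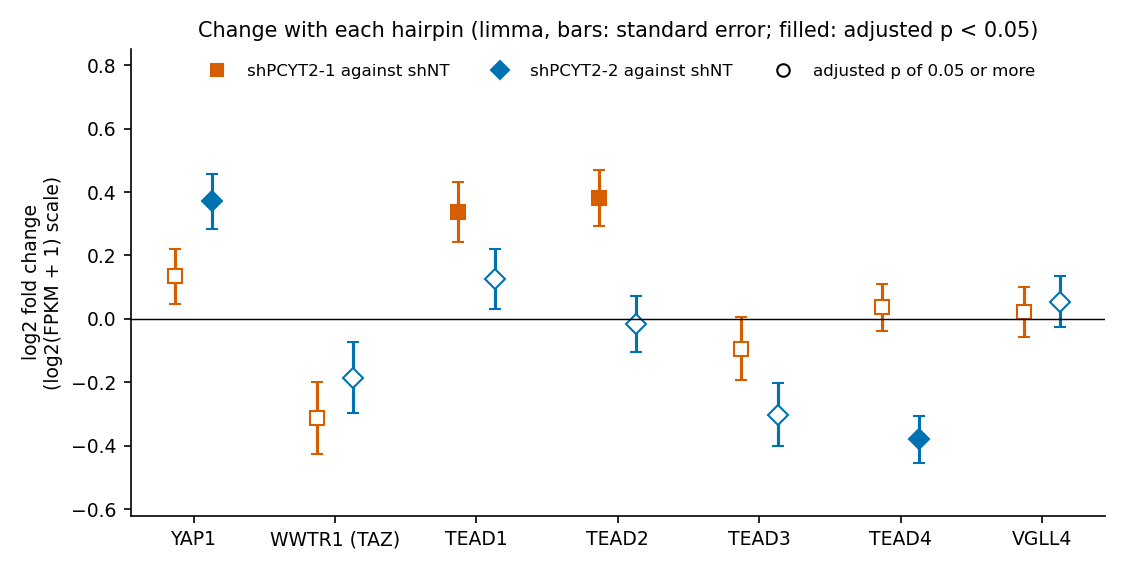
Change of each gene with each hairpin against the same 2 shNT libraries, as log2 fold change on the log2(FPKM + 1) scale with the standard error from limma, filled where the adjusted p is under 0.05. The filled points are TEAD1 (0.34) and TEAD2 (0.38) for shPCYT2-1, and YAP1 (0.37) and TEAD4 (-0.38) for shPCYT2-2.

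Counted together, 2 of the 7 genes passed with shPCYT2-1, where 26.7% of all tested genes passed. Both were higher, as were 16.5% of tested genes, and 0 were lower, as were 10.1%. With shPCYT2-2, 2 of 7 passed, where 12.4% of tested genes passed. They were 1 higher (7.69% of tested genes) and 1 lower (4.74%). Between the hairpins, 2 of 7 passed, where 27.1% of tested genes passed. Both were lower with shPCYT2-2 (14.2% of tested genes) and 0 were higher (12.9%). With 7 genes these shares are coarse, and nothing about the 7 as a group is read from them. None was called in the same direction with both hairpins, as were 3.09% (higher) and 1.29% (lower) of tested genes. The hairpin comparisons share the shNT libraries.

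By plain order of the values, shPCYT2-1 and shNT did not overlap for 4 of 7 genes, which held for 69% of tested genes. YAP1, TEAD1 and TEAD2 were higher (43.3% of tested genes) and WWTR1 was lower (25.6%). For shPCYT2-2 it was also 4 of 7, against 57.5% of tested genes, with YAP1 higher (35.1%) and WWTR1, TEAD3 and TEAD4 lower (22.4%). The hairpins did not overlap for 5 of 7 genes, against 67.3% of tested genes. With shPCYT2-2, YAP1 was the higher one (30.7%) and the 4 TEADs were lower (36.5%).

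With the 4 knockdown libraries taken as 1 group against shNT, 0 of the 7 genes passed (limma adjusted p between 0.318 and 0.841). An unadjusted p under 0.05 was reached by 0 of 7, against 2128 of the 12756 tested genes. In that fit 0.00784% of tested genes passed, which is 1 gene. The log2 fold change was 0.25 for YAP1 and -0.25 for WWTR1, the only members whose 4 knockdown libraries did not overlap shNT. That held for 30.2% of tested genes, 20.7% on the higher side, like YAP1, and 9.48% on the lower side, like WWTR1. If the hairpins were instead averaged within the 3-group fit, YAP1 passed (0.25, limma adjusted p = 0.0476), where 16.8% of tested genes passed. That call remained without shPCYT2-2 replicate 2 (limma adjusted p = 0.0275) but not without any of the other 5 libraries (limma adjusted p between 0.0832 and 0.195). It was also lost with median-ratio scaling (0.19, limma adjusted p = 0.0715), with equal library totals (limma adjusted p = 0.0505), without a variance trend (limma adjusted p = 0.0841), with no expression limit (limma adjusted p = 0.131) and with the GC and length trend removed (0.17, limma adjusted p = 0.103). Other members passed in this average under some settings: WWTR1 with median-ratio scaling (-0.30, limma adjusted p = 0.0444), WWTR1 (-0.36, limma adjusted p = 0.0305) and TEAD2 (0.28, limma adjusted p = 0.0302) with the GC and length trend removed, and TEAD1 with the replicate block (0.23, limma adjusted p = 0.0374).

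TAZ mRNA made up a smaller part of the coactivator mRNA in every knockdown library than in either shNT library. Its share, as WWTR1 in percent of YAP1 plus WWTR1 in FPKM, was 11.5% and 11.9% with shNT, 8.39% and 8.16% with shPCYT2-1, and 8.13% and 7.68% with shPCYT2-2. The knockdown and shNT libraries did not overlap, and each group was narrow. The mean was 11.7% ± 0.309 (SD, n = 2) with shNT and 8.09% ± 0.295 (SD, n = 4) with knockdown, a difference of -3.63 percentage points (two-sided exact permutation test, p = 0.133). That is the smallest p that this test can give with 4 libraries against 2, and it was 0.444 after adjustment over the 28 such tests. This permutation test therefore cannot pass 0.05 here. As a ratio, YAP1 exceeded WWTR1 by 7.54-fold with shNT, 11.1-fold with shPCYT2-1 and 11.7-fold with shPCYT2-2. Such a share within a library is not moved by the scaling of that library. The difference lay between -3.85 and -3.41 percentage points when any 1 library was left out.

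TEAD4 made up most of the TEAD mRNA in every library. Its share of the sum of the 4 TEADs was 61.8% and 63.2% with shNT, 59.3% and 57.5% with shPCYT2-1, and 53.9% and 58.6% with shPCYT2-2. The knockdown libraries were all lower (mean difference of -5.17 percentage points, two-sided exact permutation test, p = 0.133, the smallest possible). TEAD1 took 17.3% and 15.1% with shNT, 19.4% and 18.3% with shPCYT2-1, and 22.9% and 18.9% with shPCYT2-2. TEAD2 took 12.6% and 13.0%, then 14.5% and 16.6%, then 15.5% and 14.3% in the same order. Both shares were above shNT in every knockdown library, by 3.73 and 2.42 percentage points. TEAD3 held 8.33% and 8.71% with shNT, 6.80% and 7.63% with shPCYT2-1, and 7.60% and 8.16% with shPCYT2-2, a mean difference of -0.977 percentage points. The 4 shares add to a whole in each library and are not independent of each other. With a GC and length trend taken out, the differences were -3.01 for TEAD4 and 1.16 for TEAD1, and the TEAD1 groups then overlapped (exact permutation p = 0.267).

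The shares of single TEADs lay on the same side of shNT with both hairpins, but the TEAD sum did not. The TEAD sum was 82.1 and 84.4 FPKM with shNT, 91.5 and 91.4 FPKM with shPCYT2-1, and 69.3 and 72.2 FPKM with shPCYT2-2. It thus lay above shNT with the first hairpin and below shNT with the second. The coactivator sum was 29.2 and 28.9 FPKM with shNT, 31.0 and 30.6 FPKM with shPCYT2-1, and 39.7 and 33.2 FPKM with shPCYT2-2. The ratio of coactivators to TEADs was therefore 0.355 and 0.343 with shNT, 0.338 and 0.335 with shPCYT2-1, and 0.573 and 0.461 with shPCYT2-2. Only the shPCYT2-2 libraries stood apart upward, and pooled over both hairpins the groups overlapped (difference 0.0776, two-sided exact permutation test, p = 0.80). That pooled difference was 0.0290 without shPCYT2-2 replicate 1 and 0.0283 with the GC and length trend removed. VGLL4 per coactivator was 0.627 and 0.596 with shNT, 0.555 and 0.619 with shPCYT2-1, and 0.459 and 0.564 with shPCYT2-2, and knockdown overlapped shNT here too (pooled difference -0.0619, exact permutation p = 0.267). Without shPCYT2-2 replicate 1 the difference was -0.0318, and with the GC and length trend removed it was -0.0221.

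Genes whose level followed each member most closely over the 6 libraries were named by Pearson's r among genes with a mean of at least 5 FPKM (7615 candidates, 7616 for WWTR1). These are descriptions, since the 6 points share groups and libraries. YAP1 was followed by PSIP1 (r = 0.995) and THRAP3 (r = 0.991), and WWTR1 by METTL23 (r = 0.993) and PAK1 (r = 0.990). Among the TEADs, TEAD1 was followed by KIF21A (r = 0.994) and NAE1 (r = 0.994), TEAD2 by AHCY (r = 0.992) and CAPNS1 (r = 0.991), TEAD3 by SLCO4A1 (r = 0.990) and CDR2L (r = 0.987), and TEAD4 by DLGAP4 (r = 0.992) and ROMO1 (r = 0.992). None of these genes was shared between members. VGLL4 was followed by FBXL12 (r = 0.950) and NOMO3 (r = 0.927). An r over 0.9 was reached by 612 genes for TEAD1 and 320 for YAP1, but by 73 for WWTR1 and 4 for VGLL4, whose groups overlapped.

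The genes that act on YAP1, TAZ and the TEADs were taken from lists of textbook pathway members. Of the 8 Hippo core genes (kinases, their scaffolds and NF2), 2 rose with shPCYT2-1, where 16.5% of all tested genes rose, and 4 rose with shPCYT2-2, where 7.69% did. None of the 8 fell in limma with either hairpin, where 10.1% and 4.74% of all tested genes fell. Their median log2 fold change was 0.22 and 0.33, against 0.067 and 0.044 over all tested genes. MOB1B, a coactivator of the LATS kinases, rose with both hairpins (limma adjusted p = 0.0213 and 0.0485), as did 3.09% of all tested genes. Its level was 1.84 and 1.71 FPKM with shNT, 2.68 and 2.76 FPKM with shPCYT2-1, and 2.87 and 2.40 FPKM with shPCYT2-2. Calls of single list genes, here and below, are given with the main settings only. STK4, the kinase MST1, was at 16.0 and 14.1 FPKM with shNT, 18.2 and 18.2 FPKM with shPCYT2-1, and 23.5 and 21.6 FPKM with shPCYT2-2. It rose with shPCYT2-2 (0.55, limma adjusted p = 0.00748), where MOB1A (0.48) and LATS2 (0.41) also rose, and LATS1 rose with shPCYT2-1 (0.40). In the pooled comparison 0 of the 8 passed, where 0.00784% of all tested genes passed.

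The angiomotins hold YAP1 at junctions and actin. AMOTL2, itself a YAP1 target, was at 7.14 and 7.71 FPKM with shNT, 6.47 and 6.45 FPKM with shPCYT2-1, and 11.8 and 12.2 FPKM with shPCYT2-2. It rose with shPCYT2-2 (0.63, limma adjusted p = 0.00501) and differed between the hairpins (0.80, limma adjusted p = 4.01e-04), whereas AMOT and PTPN14 did not pass with either hairpin. The 14-3-3 proteins bind phosphorylated YAP1 and TAZ in the cytoplasm. Of 7, YWHAB, YWHAQ and YWHAZ rose with shPCYT2-1 (16.5% of all tested genes rose). With shPCYT2-2, YWHAE and YWHAG rose (7.69% of all tested genes) and SFN fell (-0.27, limma adjusted p = 0.0312), as did 4.74% of all tested genes. Of 7 genes for phosphorylation-dependent degradation, FBXW11 and SKP1 rose with shPCYT2-1 and CUL1 with shPCYT2-2, beside the same backgrounds of 16.5% and 7.69%, and the casein kinases CSNK1E (mean 56.7 FPKM) and CSNK1D (44.9 FPKM) passed with neither. LATS1, LATS2, PTPN14, the 14-3-3 genes other than YWHAQ and SFN, FBXW11, SKP1 and CUL1 are not named by the fixed rule. Nor are VGLL1 above, and AXL, CCN2, CDX1, CDX2, CEACAM5, KRT20, PDGFRB, COL3A1, PTPRC and TYROBP below. All of these were picked after their values were seen.

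JUND, a subunit of AP-1, which acts with YAP1, TAZ and TEADs in the nucleus, was at 121 and 142 FPKM with shNT, 78.0 and 87.3 FPKM with shPCYT2-1, and 110 and 119 FPKM with shPCYT2-2, and fell with shPCYT2-1 (-0.67, limma adjusted p = 0.00183). Of 21 tested YAP1 and TAZ target genes, 2 rose and 2 fell with shPCYT2-1, where 16.5% of all tested genes rose and 10.1% fell. With shPCYT2-2, 7 rose and 1 fell, where 7.69% of all tested genes rose and 4.74% fell. Their median log2 fold changes were -0.14 and 0.28, against 0.067 and 0.044 over all tested genes. IGFBP3 fell with both hairpins, as did 1.29% of all tested genes. Its change was -1.06 and -0.30 (limma adjusted p = 1.29e-04 and 0.0288). F3, tissue factor, rose with both (0.49 and 0.78), as did 3.09% of all tested genes. AXL was lower with shPCYT2-1 (-0.36, limma adjusted p = 0.0185) and higher with shPCYT2-2 (0.77, limma adjusted p = 0.00263). CCN2 rose with shPCYT2-1 (0.85, limma adjusted p = 0.00239), and its shPCYT2-2 value of 0.21 did not pass (limma adjusted p = 0.259). Between the hairpins, 11 targets were higher and 1 lower with shPCYT2-2 (limma), against 12.9% and 14.2% of all tested genes. AMOTL2, LATS2 and PTPN14 are counted in the target list as well as above.

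TEADs bind DNA at the bases GGAATG, which were searched on both strands as the only motif. The window from 250 bases before to 50 bases after the RefSeq start (GRCh38.p14) was available for 5 of the 7 genes (YAP1, WWTR1, TEAD2, TEAD3 and VGLL4, 11 windows). The letters were found in 1 of these 11 windows, that of YAP1, against 14.03% of all 35116 windows. They were found in 9 of 19 windows of the target genes, which were listed as targets for other reasons. The YAP1 stretch and that of CCN2, a standard target whose window holds further copies, are shown with the motif in capitals. They lie at chr11:102110250-102110325 (plus strand) and chr6:131951501-131951576 (minus strand), and the motif begins 162 and 169 bases before the start. A match is a description and not a binding site.
YAP1: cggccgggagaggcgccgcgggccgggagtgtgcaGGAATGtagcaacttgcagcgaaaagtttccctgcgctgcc
CCN2: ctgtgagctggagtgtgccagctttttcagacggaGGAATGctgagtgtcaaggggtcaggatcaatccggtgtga

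The labelled cell type was checked against markers. Of 10 colorectal epithelial markers, 8 passed the limit for testing. CEACAM5 (mean 0.259 FPKM) and KRT20 (0.0302 FPKM, not listed in 3 of 6 libraries) did not. The simple-epithelium keratins KRT8 (mean 3377 FPKM) and KRT18 (3079.5 FPKM) made up most of the sum of the list, which was 7196 and 7678 FPKM with shNT, 7356 and 7408 FPKM with shPCYT2-1, and 5519 and 5748 FPKM with shPCYT2-2. Both fell with shPCYT2-2, the hairpin with which TEAD4 fell and YAP1 rose. The other 6 tested markers did not pass with shPCYT2-2, with log2 fold changes from -0.055 (CDX2) to 0.28 (CDX1), and the median of the list was 0.12 against 0.044 over all tested genes. CDX2, an intestinal transcription factor, fell with shPCYT2-1, with which TEAD1 and TEAD2 rose, and the other 7 did not pass there (list median 0.022 against 0.067). The fibroblast markers, 6 of 7 listed, summed to 2.25 and 2.45 FPKM with shNT, 3.62 and 4.11 FPKM with shPCYT2-1, and 3.79 and 3.59 FPKM with shPCYT2-2, with LUM most abundant (1.42 FPKM) and COL3A1 not listed. LUM, a matrix proteoglycan, rose with shPCYT2-1 (0.81, limma adjusted p = 0.00192), with which TEAD1 and TEAD2 rose. It was at 0.789 and 0.863 FPKM with shNT and at 2.17 and 2.24 FPKM with shPCYT2-1, so the rise of the sum lay mostly in LUM. COL1A1, the other tested fibroblast marker, did not pass with shPCYT2-1 (0.18, limma adjusted p = 0.272). PDGFRB, under the limit for testing, was lower there (0.225 and 0.309 FPKM, against 0.364 and 0.507 FPKM with shNT). Of 5 leukocyte markers, 3 were listed, led by CD68 (19.5 FPKM), while PTPRC and TYROBP were not. The 4 endothelial markers were listed, led by CDH5 (0.486 FPKM). The part of these shifts in the values of the 7 genes was not tested.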

How the data were processed

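RNA-Seq libraries were made by a commercial provider. The authors deposited 1 table per library of Ensembl identifiers and values, which were taken as FPKM because they are not whole and sum to similar totals. Only genes with a value are listed, and TPM restricted to some genes would look the same. The submitters' processing notes name GRCh38, GRCm38 and mm10, and the labels name 2 library kits without assigning them to libraries. Aligner and annotation are not given in the sources used here.

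Of 21539 identifiers, 115 repeated within a library were summed and 1045 groups with identical values were joined, leaving 19655 genes, named and placed with GENCODE 29 (GRCh38). Genes with a mean of at least 0.5 FPKM (12756) were tested on log2(FPKM + 1) with limma 3.58.1 in R 4.3.3, with a trend of variance on the mean and p values adjusted over all of them by Benjamini-Hochberg. Hairpins and their difference came from a fit with 3 groups, the pooled comparison from a fit with 2. The study's methods name a count-based package, for which these values are not suited. Relative abundances were compared by exact permutation tests over libraries (scipy 1.17.1), 28 in all. The fits were tested on simulated data.

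The members and lists were chosen with earlier results of these data known. Named genes are the 7 members and PCYT2, the 2 most abundant genes of each list and up to 3 called in 1 direction with both hairpins, the 2 genes closest to each member by Pearson's r, and genes that overlap a member. Of these, those that carry no result are left out of the text, and genes named outside this rule are given as such where they stand. Other settings concerned scaling, GC content and length, the variance model, single libraries, the low-value limit, the pseudocount, repeated rows and a replicate block. The list of nuclear partners is not reported here, apart from JUND.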

Additional observations from a re-analysis of the deposited data

Results flagged for a closer look

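Among the 4 knockdown libraries, WWTR1 in shPCYT2-2 replicate 1 (3.22 FPKM) lay apart from the other 3, with a gap of 0.864 of the range, above Dixon's 95% critical value. This was the 1 such case among 16 quantities examined, and chance gives about 1 in 20.

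The hairpins differed in their effect on TEAD2 (-0.40 for shPCYT2-2 against shPCYT2-1, limma adjusted p = 0.0115) and TEAD4 (-0.42, limma adjusted p = 0.00431). The TEAD sum lay above shNT in both shPCYT2-1 libraries and below it in both shPCYT2-2 libraries, a difference of -20.7 FPKM between the hairpins that was not tested. The coactivator to TEAD ratio lay below shNT in both shPCYT2-1 libraries and above it in both shPCYT2-2 libraries, a difference of 0.180 whose reversal of side was not tested.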

How the results depend on the processing

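Of 483 repeats of the 28 fold changes of the members, 437 kept direction and side of the threshold, 18 lost the call, 15 gained it and 13 changed sign. The cause of these changes was not tested. Removing a trend on GC content and length gave 4 members called with shPCYT2-1 and 5 between the hairpins. Of the 12756 tested genes, 3428 and 4425 were called there. The removal changed the sign of TEAD3 with shPCYT2-1 (0.037, also with the replicate block) and TEAD2 with shPCYT2-2 (0.081, also with the block). It also changed the sign of VGLL4 per coactivator with shPCYT2-1 (0.0129). Combined with the replicate block, the removal gave 3 members and 3239 genes with shPCYT2-1, and 0 members and 1295 genes with shPCYT2-2. Between the hairpins it gave 4 members and 4234 genes, and 0 genes passed in the pooled comparison. Median-ratio scaling changed the sign of VGLL4 pooled (-0.021) and with shPCYT2-1 (-0.047), and of TEAD4 with shPCYT2-1 (-0.036). It gave 1476 genes higher and 1713 lower with shPCYT2-1 (2109 and 1291 without it), and 760 and 845 with shPCYT2-2 (981 and 604). With no expression limit, where 19655 genes were tested, 0 members and 1844 genes were called with shPCYT2-1, 0 members and 124 genes with shPCYT2-2, and 7 genes pooled. Without a variance trend, shPCYT2-2 had 1 member and 1027 genes. The mean of the hairpins gave 1 member and 2142 genes in place of the pooled 0 and 1, and a pseudocount of 0.1 or a mean of at least 1 FPKM gave 0 genes pooled.

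Replicate numbers did not pair the libraries (correlations of deviations 0.0027, 0.062 and 0.19). The replicate block gave 2, 3 and 2 members called with shPCYT2-1, with shPCYT2-2 and between the hairpins, beside 3884, 2029 and 3869 genes. With shPCYT2-2, TEAD3 was lower in addition (limma adjusted p = 0.0428). The block gave 0 genes pooled.

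With each library left out in turn, members called ran from 0 to 3 with shPCYT2-1, 0 to 2 with shPCYT2-2 and 1 to 2 between the hairpins, and were 0 pooled. Genes called ran from 1147 to 3256, 125 to 1893, 1662 to 3785 and 0 to 1. Sign changed within the ranges of VGLL4 (pooled -0.0027 to 0.080, shPCYT2-1 -0.044 to 0.090, between hairpins -0.036 to 0.099), TEAD2 with shPCYT2-2 (-0.055 to 0.023), the TEAD2 (-1.67 to 0.398) and TEAD4 (-4.46 to 0.233) shares between hairpins, and VGLL4 per coactivator with shPCYT2-1 (-0.0563 to 0.0081). A lone library left in a group is assumed to vary like the others. The number of libraries limits every value.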
